A study of Mus musculus with 7 samples.

Results

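Prodh, Psat1, Ggct, Slc19a1, Acat3 and Tmem97 are 6 genes of amino acid, folate, glutathione and sterol metabolism. They were taken by symbol from the 769 gene models of the authors' deposited table, which compares megakaryocyte progenitors of old mice with those of young mice. All 6 had lower group means in old, and all 6 had been picked from this same contrast. Their fold changes and adjusted p-values are therefore given as a description, and support nothing further.

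The cells were sorted from bone marrow as lineage-negative, cKit-positive, Sca1-negative, CD150-positive and CD41-positive, the surface phenotype of progenitors committed to megakaryocytes and platelets. The young group had 3 libraries from mice aged 3 months, and the old group had 4 libraries from mice given as 18 to 20 months old. Every mouse descended from a cross of Flt3-cre with the mTmG reporter, which turns from Tomato to GFP in cells whose lineage has expressed the recombinase, and the series' design text calls the mice WT. The Tomato-positive or GFP-positive fraction was collected, all young titles are of 1 kind and the old titles of 2 kinds, and the labels do not tie a library to a fraction. The strain label was C57BL/6 except in 1 old library, labelled C57BL/7. Age and kind of title can therefore not be told apart fully, and no label says that libraries came from separate mice.

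Proliferating blood progenitors need amino acids, one-carbon units and sterols to build protein, nucleotides and membrane. Serine made from a glycolytic intermediate feeds glycine and folate-bound one-carbon units, which purine and thymidylate synthesis use. Proline breakdown passes electrons to the mitochondrial respiratory chain, the gamma-glutamyl cycle recovers amino acids from glutathione, and the mevalonate pathway turns acetyl-CoA into cholesterol.

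Stretches before the annotated start sites are shown for 5 of the 6 genes, because the members were picked for a common direction and their start regions can be compared letter by letter. Acat3 had no entry in the RefSeq promoter table (GRCm38.p6). Each stretch is the part of a RefSeq window, from 250 bases before to 50 bases after a start site, that no GENCODE M21 exon covers. Each reads 5′ to 3′ on the gene's own strand, and capitals mark a match to the antioxidant response element TGACNNNGC on either strand.
Prodh, chr16:18089293-18089440: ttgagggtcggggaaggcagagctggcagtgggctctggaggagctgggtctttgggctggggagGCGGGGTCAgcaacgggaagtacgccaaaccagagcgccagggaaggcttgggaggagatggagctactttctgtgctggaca
Ggct, chr6:54992951-54993117: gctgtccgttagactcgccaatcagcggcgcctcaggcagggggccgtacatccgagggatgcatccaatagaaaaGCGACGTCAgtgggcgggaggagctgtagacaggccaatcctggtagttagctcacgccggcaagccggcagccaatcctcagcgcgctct
Slc19a1, chr10:77032962-77033211: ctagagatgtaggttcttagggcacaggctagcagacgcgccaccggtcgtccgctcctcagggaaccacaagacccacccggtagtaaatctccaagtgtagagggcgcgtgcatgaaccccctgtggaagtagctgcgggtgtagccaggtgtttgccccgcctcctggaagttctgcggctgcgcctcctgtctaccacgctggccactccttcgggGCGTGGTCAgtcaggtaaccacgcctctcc
Psat1, chr19:15925060-15925309: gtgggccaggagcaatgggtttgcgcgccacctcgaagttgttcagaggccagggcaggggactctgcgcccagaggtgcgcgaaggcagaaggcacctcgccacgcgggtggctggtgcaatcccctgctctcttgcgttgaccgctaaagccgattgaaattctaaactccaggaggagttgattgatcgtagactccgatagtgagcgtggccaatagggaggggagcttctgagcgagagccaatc
Tmem97, chr11:78550778-78550985: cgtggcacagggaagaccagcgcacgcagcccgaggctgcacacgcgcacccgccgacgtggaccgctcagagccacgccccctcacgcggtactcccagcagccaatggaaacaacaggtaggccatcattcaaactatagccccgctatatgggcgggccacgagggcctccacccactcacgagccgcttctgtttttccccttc
Prodh, Ggct and Tmem97 had 1 RefSeq window each, and Psat1 and Slc19a1 had 2 each. The antioxidant response element, to which factors such as Nfe2l2 bind, matched in 3 of these 7 windows, those of Prodh, Ggct and the downstream Slc19a1 start, against 12.4% of all 32851 windows. Windows of Asns and Phgdh, related genes that are not members, held it too. No match was recorded for the other related genes with values, Abcg1, Dld, Gart, Odc1, Sqle, Gars, Nupr1 and Wars. Every match shown lies on the opposite strand, 185 bases before the Prodh start, 174 before the Ggct start and 30 before the Slc19a1 start. The Ggct window holds another match 5 bases after its start, which the printed stretch leaves out. No member window held the sterol regulatory element TCACNCCAC, present in 1.24% of all windows. The E-box CACGTG (7.15% of all windows) and the ATF4 element TGATGNAA (3.97%) were also not found in the member windows. All motifs were searched on both strands and no matches overlapped. A match of this kind is a match of letters only.

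The whole table gives the setting for these genes. From the deposited p-values, the authors' adjustment covered 11778 gene models, of which 185 (1.57%) were called lower in old and 302 (2.56%) higher, 4.13% in all, at an adjusted p under 0.05 by the authors' DESeq test. All 6 genes are among the lower calls by the way they were picked, so their count says nothing against that background. Gene models with an adjusted p of 0.1 or more are outside the table, so they carry no value here, and genes that were not called cannot be counted at an unadjusted p. The total count of each library is unknown, the group means have no replicate spread, and precision is given by the authors' standard error (SE). Of 17 megakaryocyte markers, only Selp (P-selectin, through which activated platelets adhere) was in the authors' deposited table (496 to 2358 normalized counts, higher in old). Of 10 sort gate genes, 3 were in the authors' deposited table, all higher in old. Ly6a, which encodes Sca1 and was gated against, went from 23.5 to 98.8 normalized counts (adjusted p = 0.0499 by the authors' DESeq test), and the lineage gene Cd4 was called as well, in the authors' deposited table. The CD150 gene Slamf1 had means of 79.3 and 228 and did not pass (adjusted p = 0.0856 by the authors' DESeq test) in the authors' deposited table. The sort genes Kit and Itga2b were outside it, so the labelled cell type could not be checked against their levels. Granulocyte and monocyte markers moved with age in these libraries. Of 22 such markers, 16 were present in the authors' deposited table, all higher in old, and 15 were called. Their summed level went from 5539 normalized counts in young to 97563 in old, none was at 0, and Mpo, Elane and Ctsg were outside the table. Of 9 mast cell, basophil and eosinophil markers, 4 were called higher, with a sum of 27.2 in young and 1398 in old and with Prg3 listed at 0 in young, in the authors' deposited table. Both called erythroid markers of 11 (sum 977 to 6431), both of 11 lymphoid markers (3.26 to 42.4) and both of 12 stromal and endothelial markers (36.6 to 458) were also higher in the authors' deposited table. The part of these other markers in the lower values below was not tested, and in bulk libraries fewer cells of a type cannot be told apart from less RNA per cell.

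The enzymes of proline breakdown and serine synthesis in the set had like ratios of old to young, 52.4% and 53.3%. Prodh is proline dehydrogenase, the mitochondrial enzyme that opens proline breakdown (chr16:18060357-18090203, minus strand, GRCm38). Its group mean in the authors' deposited table was 3926 normalized counts in young and 2057 in old. The old level was thus 52.4% of the young level, with a 95% interval of 42.0% to 65.4% from the authors' SE. Its log2 fold change was -0.93 (SE 0.16, adjusted p = 5.34e-06 by the authors' DESeq test) in the authors' deposited table. Among the 185 lower calls only 2 had a smaller adjusted p, while 25 had a larger fall.

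Psat1, phosphoserine aminotransferase, carries out the middle step of serine synthesis with glutamate as the amino donor (chr19:15904678-15947337, minus strand). In the authors' deposited table it had a mean of 6525 normalized counts in young and 3476 in old. Old stood at 53.3% of young (95% interval 37.5% to 75.7%), close to the ratio of Prodh but with a wider interval. The log2 fold change was -0.91 (SE 0.26, adjusted p = 0.0192 by the authors' DESeq test) in the authors' deposited table. Its SE was above the median of 0.18 of the 148 lower calls with a young mean of at least 1000.

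Other genes of these routes that were present in the authors' deposited table had values on the same side. Phgdh, which encodes the dehydrogenase just before Psat1 in serine synthesis, was listed at 9779 and 4580 normalized counts without passing (log2 fold change -1.09, SE 0.39, adjusted p = 0.0848 by the authors' DESeq test) in the authors' deposited table. Psph, the phosphatase that completes the route, was outside the table. Dld, the dihydrolipoamide dehydrogenase shared by the glycine cleavage system and pyruvate dehydrogenase, passed (1135 to 683, -0.74, SE 0.19, adjusted p = 0.00723 by the authors' DESeq test) in the authors' deposited table. Odc1, ornithine decarboxylase of polyamine synthesis, passed too (1411 to 715, -0.98, SE 0.30, adjusted p = 0.0348 by the authors' DESeq test) in the authors' deposited table. Asparagine synthetase, Asns, was listed at 3501 and 1730 without passing (-1.02, SE 0.35, adjusted p = 0.0708 by the authors' DESeq test) in the authors' deposited table. The list of proline, glutamate and arginine metabolism thus had 1 lower call among its 21 other genes (4.76%). The serine and glycine list had 1 among 13 (7.69%), with 0 higher calls in either. Over all gene models in the adjustment 1.57% were called lower, and 1 call per list is too few to set against that share.

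**Figure D1:**
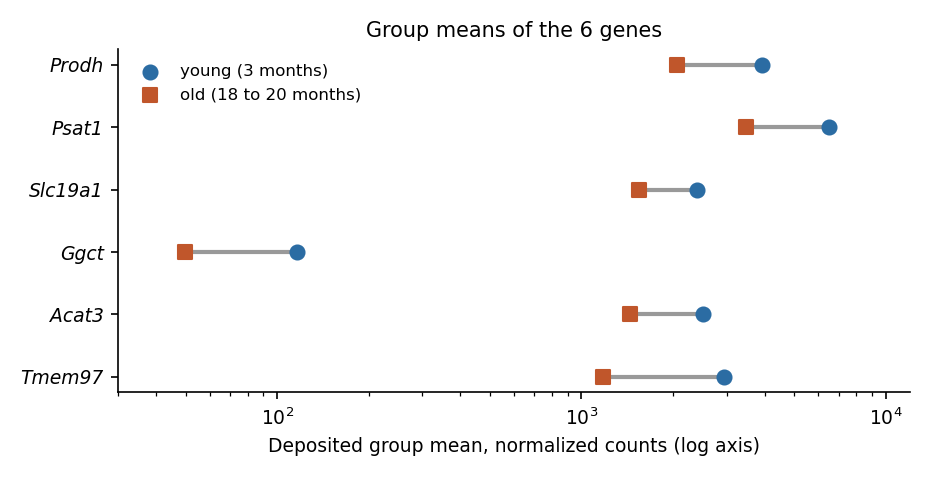
Deposited group means of the 6 genes in normalized counts on a log axis, with young as blue circles and old as orange squares; the means carry no replicate spread. The old mean lies to the left of the young mean for each gene, and Ggct sits far below the other 5 in both groups.

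Slc19a1, the reduced folate carrier, brings folates and antifolates such as methotrexate into cells (chr10:77032241-77061002, plus strand). The authors' deposited table lists it at 2395 normalized counts in young and 1540 in old. Old was 64.4% of young by the fold change (95% interval 51.0% to 81.2%), the smallest fall of the 6. Its log2 fold change was -0.64 (SE 0.17, adjusted p = 0.0119 by the authors' DESeq test) in the authors' deposited table, less in size than the median of -0.72 over all lower calls. Col18a1, a collagen gene whose span overlaps Slc19a1 on the other strand, moved the opposite way, from 6.67 to 280 normalized counts (5.39, SE 1.41) in the authors' deposited table. The 2 genes share 0 annotated exon bases.

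Of 28 other folate and one-carbon genes, 0 were called in either direction by the authors' DESeq test at an adjusted p under 0.05. Over all gene models in the adjustment, 1.57% were called lower and 2.56% higher, so a list of this length holds few calls at those shares. The only one of them with values was Gart, a purine synthesis enzyme that uses formyl folate, listed at 3679 and 2244 normalized counts without passing (-0.71, SE 0.26, adjusted p = 0.0899 by the authors' DESeq test) in the authors' deposited table. The other 27 were outside the table.

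Ggct encodes gamma-glutamylcyclotransferase, which releases an amino acid and pyroglutamate from gamma-glutamyl dipeptides (chr6:54982580-54992950, minus strand). Its means in the authors' deposited table were 116 normalized counts in young and 49.8 in old. By the fold change, old was 42.4% of young (95% interval 26.2% to 68.8%). The log2 fold change was -1.24 (SE 0.36, adjusted p = 0.0210 by the authors' DESeq test) in the authors' deposited table. No lower call rested on a smaller young count, and 6 had a larger fall. None of the 19 other genes of the glutathione and gamma-glutamyl list was present in the table, so none was called in either direction by the authors' DESeq test.

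Acat3 and Tmem97 belong to sterol metabolism. Acat3 is a mouse relative of Acat2, the cytosolic thiolase that joins acetyl-CoA units into acetoacetyl-CoA ahead of the mevalonate pathway (chr17:12923813-12940600, minus strand). The authors' deposited table gives 2505 normalized counts in young and 1439 in old. Old was 57.4% of young (95% interval 46.7% to 70.6%). Its log2 fold change of -0.80 had the smallest SE of the set (0.15, adjusted p = 5.11e-05 by the authors' DESeq test) in the authors' deposited table.

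The reads behind Acat3 may not all be its own. On the other strand, exons of Tcp1, which encodes a subunit of the TRiC chaperonin, cover 571 of the 2427 annotated exon bases of Acat3 (23.5%). Tcp1 had 17010 normalized counts in young and 8684 in old, and it fell as well (-0.97, SE 0.24, adjusted p = 0.00461 by the authors' DESeq test) in the authors' deposited table. Acat2 lies 2290 bases away on the same strand and is a close copy. Of 2095 different 50-base words in the main Acat3 transcript, 48.2% also occur in Acat2 transcripts and 25.1% in Tcp1 on the reverse strand, and 59.4% occur in one or the other. Acat2 itself was outside the table. The labels do not say whether strand or unique reads were used in counting, so the level and the fall of Acat3 are uncertain.

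Tmem97, also known as the sigma-2 receptor, is a membrane protein that binds the lysosomal cholesterol transporter Npc1 and is induced when sterols run low (chr11:78541817-78550777, minus strand). Its mean in the authors' deposited table was 2940 normalized counts in young and 1179 in old. Old was 40.1% of young (95% interval 23.5% to 68.2%), the lowest ratio of the 6. The log2 fold change was -1.32 (SE 0.39, adjusted p = 0.0275 by the authors' DESeq test) in the authors' deposited table. It ranked 5 by size among the 185 lower calls but 113 by adjusted p. Of the 148 lower calls with a young mean of at least 1000, only 1 had a larger SE. The processed pseudogene Gm5809 on chromosome 16 holds 20.8% of the 1326 50-base words of Tmem97, so some of its reads may be shared. Psat1 shared 1.21% of its words with the processed pseudogene Gm12611, and the main transcripts of Prodh, Ggct and Slc19a1 shared 0 with transcripts of other genes.

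The remaining sterol genes gave little beyond these. Of 23 other cholesterol synthesis genes, 0 were called by the authors' DESeq test, and Sqle, squalene epoxidase, was listed at 909 and 571 normalized counts without passing (-0.67, SE 0.24, adjusted p = 0.0833 by the authors' DESeq test) in the authors' deposited table. Among 23 other genes of sterol uptake, traffic and control, 0 were called by the same test. Both lists are short beside the background shares of 1.57% lower and 2.56% higher, so few calls would be present in them at those shares. Abcg1, a cholesterol exporter, was listed on the other side, from 51.6 to 137, and did not pass (1.42, SE 0.52, adjusted p = 0.0955 by the authors' DESeq test) in the authors' deposited table.

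Over the 6 metabolic lists together, the 127 genes other than the members had 2 lower calls and 0 higher calls. The 2 lower calls, Odc1 and Dld, are 1.57% of these genes, against 1.57% of all gene models in the authors' adjustment. The first share is over annotated genes and the second over gene models in the adjustment. The members were picked as lower calls, so leaving them out lowers the list share by construction, while the background still counts them. With them, 8 of 133 genes (6.02%) were lower calls, a share raised by the same picking. Neither share can tell whether the lists differ from the background. Of the 127 genes, another 4 were present as lower and 1 as higher with an adjusted p between 0.05 and 0.1 in the authors' deposited table, and 120 were outside it. At the looser limit of 0.1, 6 of the 127 genes were lower in all. That is a larger share than the 2.86% of gene models in the adjustment that were lower there. The difference in share was not tested.

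**Figure D2:**
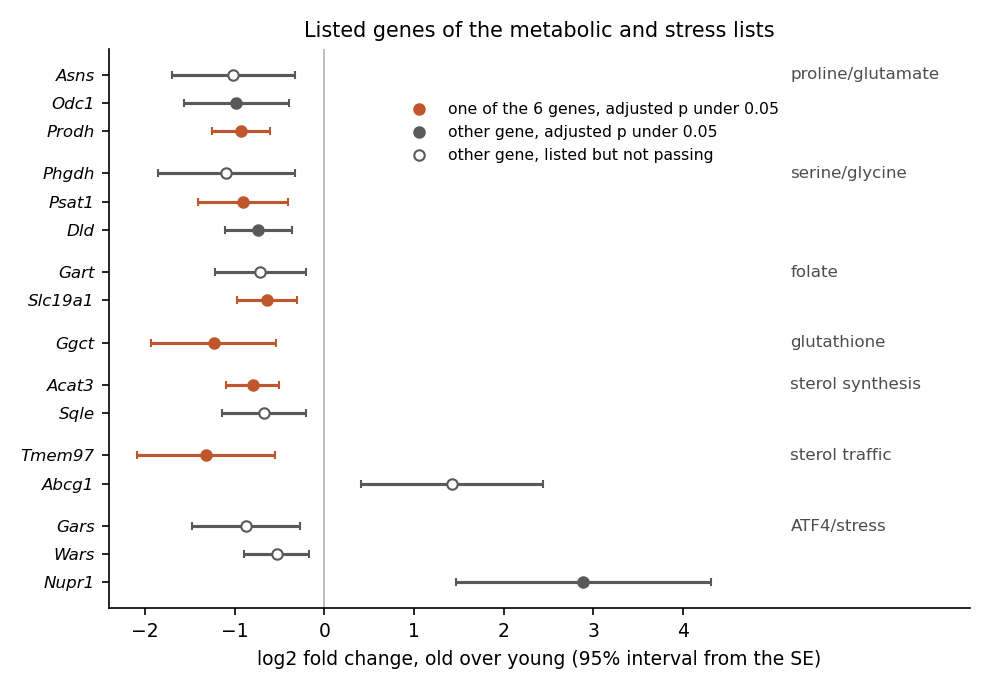
Log2 fold changes of old over young with 95% intervals from the authors' SE, for the genes of the 6 metabolic lists and of the ATF4 and stress list that are in the deposited table; filled points had an adjusted p under 0.05 and the 6 members are orange. The points lie left of 0 except Abcg1 (1.42) and Nupr1 (2.89).

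ATF4, the transcription factor of the amino acid stress response, activates Psat1, Phgdh and Asns. Of these, Psat1 was called lower, and Phgdh and Asns were lower without passing, as given above. The ATF4 and stress list of 14 genes does not contain them. It had 1 call (7.14%, against 2.56% of gene models called higher), Nupr1, a stress-induced nuclear protein. A single call in a list of 14 is too few to set against that share. Nupr1 was higher in old (192 to 1418 normalized counts, 2.89, SE 0.72, adjusted p = 0.00562 by the authors' DESeq test) in the authors' deposited table. The glycyl-tRNA synthetase gene Gars was listed at 7570 and 4131 normalized counts without passing (-0.87, SE 0.31, adjusted p = 0.0795 by the authors' DESeq test) in the authors' deposited table. Wars, for tryptophan, was listed at 2786 and 1923 without passing (-0.53, SE 0.19, adjusted p = 0.0756 by the authors' DESeq test) in the authors' deposited table. Atf4, Ddit3 and Trib3 were outside the table. The start windows of Asns, Gars and Nupr1 held the ATF4 element. Of the 11 p53 targets, a list added because Prodh is known as a p53-induced gene, none was in the table.

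The 6 genes differed in level far more than in their ratio of old to young, and most of that spread came from Ggct. The levels of Acat3 and Tmem97 may include reads of other genes, as given above. Per kilobase of the main annotated transcript, the young mean was 2493 normalized counts for Psat1, 2138 for Tmem97, 1645 for Prodh, 1169 for Acat3, 1021 for Slc19a1 and 29.3 for Ggct. In old the same scale gave 1328 for Psat1, 862 for Prodh, 857 for Tmem97, 671 for Acat3, 656 for Slc19a1 and 12.6 for Ggct. Tmem97 thus stood above Prodh in young and beside it in old. These levels carry no replicate spread, so neighbours in the order cannot be told apart, and the transcript lengths are GENCODE's, since the authors' gene models come with no length. By contrast, the 95% intervals of the 6 ratios all include the range from 51.0% to 65.4%, so the order of the falls is not resolved.

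**Figure D3:**
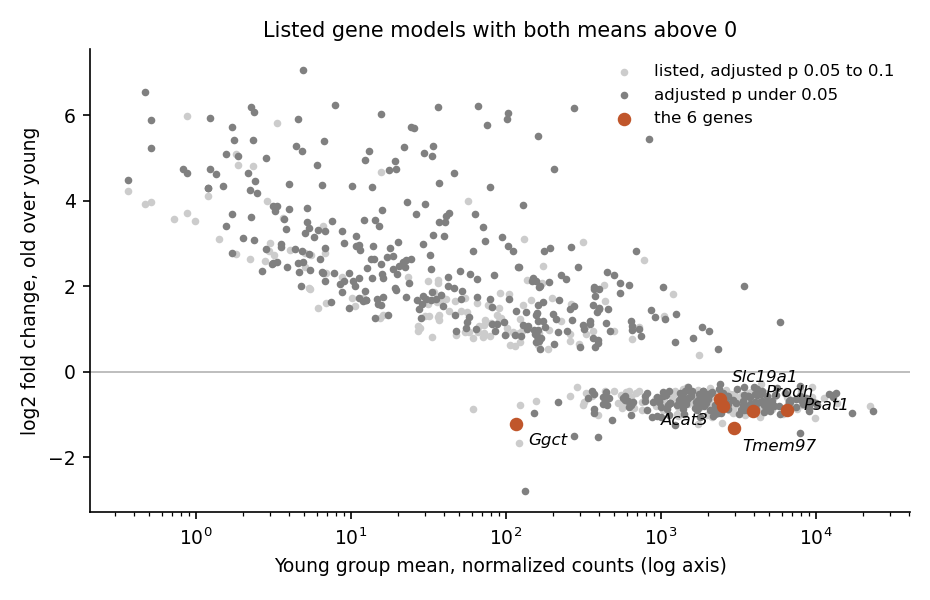
Log2 fold change of old over young against the young group mean in normalized counts (log axis) for the 757 gene models of the deposited table with both means above 0; the 6 genes are orange. Prodh, Psat1, Slc19a1 and Acat3 lie among the abundant gene models that make up most lower calls, Tmem97 lies below them at -1.32, and Ggct lies at the low-count edge.

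**Figure D4:**
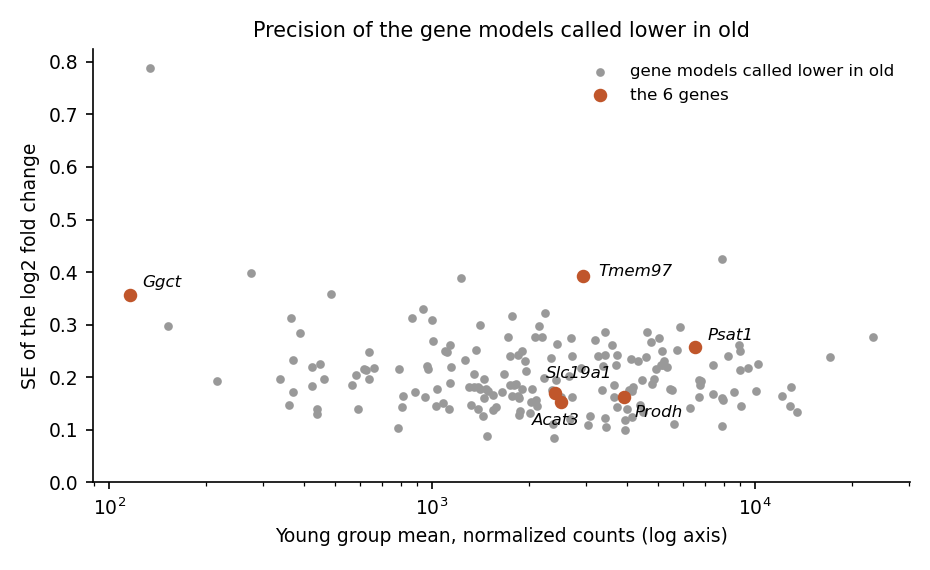
SE of the log2 fold change against the young group mean in normalized counts (log axis) for the 185 gene models called lower in old, with the 6 genes in orange. Prodh, Acat3 and Slc19a1 lie between 0.15 and 0.17, below the median of 0.19 over all lower calls, and Psat1, Ggct and Tmem97 lie above it.

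The precision differed among the 6 genes. Prodh, Acat3 and Slc19a1 had an SE of 0.15 to 0.17, Psat1 had 0.26, Ggct 0.36 and Tmem97 0.39 in the authors' deposited table. Ggct had a large SE at a low count. Only 3 lower calls, Ggct among them, had a young mean under 200. Their median SE of 0.36 includes Ggct itself, so it is no separate yardstick for that gene. Tmem97 had a large SE at a high count. Prodh and Acat3 passed an adjusted p limit of 0.01, as did 41 lower gene models in all (0.348%). Only Ggct and Tmem97 had a fall of at least 1 on the log2 scale, as did 16 of all lower calls (0.136% of the gene models in the adjustment).

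Gene models with the most similar pair of means were found by distance on the log2 young and log2 old means, over these 2 group means only. The search covered the 757 gene models of the authors' deposited table with both means above 0, all with an adjusted p under 0.1. Gene models outside that table could not be compared. Psat1 was closest to Gfi1b, a transcriptional repressor that megakaryocyte and erythroid development requires, listed at 6355 and 3480 normalized counts without passing (adjusted p = 0.0628 by the authors' DESeq test) in the authors' deposited table, at a distance of 0.038. Actl6a (0.153) and Prmt1 (0.193) came next. Prodh was nearest to Denr (0.089), Eif1ad (0.12) and Get4 (0.127), and Slc19a1 to Mrpl17 (0.019), Parl (0.025) and Pdap1 (0.029). For Acat3 the nearest were Dohh (0.054), Hspa4 (0.075) and Pdap1 (0.097). Ggct and Tmem97 had no neighbour as close within that table, which holds few lower calls at a low count such as that of Ggct. Grap2 (0.358), Rcan1 (0.545) and Npm3-ps1 (0.768) were nearest to Ggct, and Dnajc15 (0.277), Grwd1 (0.282) and Fam136a (0.329) to Tmem97. These neighbours share only a level and a ratio of means with the members.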

How the data were processed

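RNA-seq of sorted megakaryocyte progenitors was represented by 1 table of group values. Total RNA was extracted with Trizol and made into libraries by NEBNext Ultra chemistry, as the labels' protocols say. The submitters' processing notes name STAR, Bowtie2, DESeq and mm10 without versions or the part each played. How reads were counted, the strand setting and the annotation are unstated.

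The group means are a normalized signal that the authors deposited, averaged over the libraries of a group or over 14 samples. The deposited log2 fold change and its SE, the Wald test score (the ratio of both) and the p-value and adjusted p-value are the authors' own, per the file headers. The old column's name matches no single title, and the overall mean allows at most 4.08 old libraries. The table holds gene models with an adjusted p up to 0.0993. The depth of each library is unknown, so no counting interval was computed.

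No model could be fitted across libraries. Computed here with Python 3.11.15, pandas 2.3.3 and scipy 1.17.1 were the ratios, 95% normal intervals from the SE, the number of gene models behind the Benjamini-Hochberg adjustment, counts over gene lists, motif matches and shared 50-base words between GENCODE M21 transcripts. The recovered number of gene models, the motif search and the recentring shift used below were tested on simulated data. The ratios, intervals, list counts and shared words were not. For 98.5% of 757 gene models the log2 ratio of the means was within 0.1 of the deposited value. The members and lists were chosen with earlier results of these data known. Named were the metabolic and ATF4 list genes with values, the 3 nearest gene models of each member, and overlapping or related genes. The uncalled genes of these lists that were named are more than the 6 planned. Dgcr6 and Gm3329, whose spans overlap Prodh and Psat1, share 0 exon bases with them and were outside the deposited table. All list genes matched the annotation. A planned comparison of protein sequences was not run.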

Additional observations from a re-analysis of the deposited data

How the results depend on the processing

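The log2 ratio of the deposited means moved no fold change of the 6 genes by more than 0.018 and kept all 6 calls. The other 2 alternatives subtract a shift drawn from the table that the members were picked from. Such a shift moves the members toward 0 by construction, and no member kept its call under either alternative. Both alternatives test nothing about the genes and do not show which scaling is right. Recentring by 0.62, the precision-weighted mean fall of the 185 lower calls, left -0.31 for Prodh, -0.28 for Psat1, -0.61 for Ggct, -0.012 for Slc19a1, -0.18 for Acat3 and -0.70 for Tmem97. Recentring by 0.44, from the 350 gene models with an SE under 0.3, left -0.49, -0.47, -0.80, -0.20, -0.36 and -0.88 in the same order. At an adjusted p limit of 0.01, 2 members stayed called, and with a fall of at least 1 on the log2 scale 2 did. The other genes of the metabolic lists gave 1 lower call at 0.01, 6 lower and 1 higher at 0.1, and 0 with a change of at least 1. A mean of at least 50 over the 14 samples changed none of these counts.

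No paired analysis was possible because the table holds group means with no value per library. For the same reason leaving out single libraries, other normalizations and filters on counts were not run. The depth of each library is unknown, so what it limits could not be computed.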

Other observations

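The deposited mean over 14 samples includes libraries outside the 2 groups compared here, which the labels do not identify. In the authors' deposited table that mean was 1741 normalized counts for Prodh, 2921 for Psat1, 1365 for Slc19a1, 1286 for Acat3 and 1146 for Tmem97. For each of these 5 genes it lies below both the young and the old mean. For Ggct it was 73.2, between both. Of all 185 lower calls, 137 (74.1%) had a 14-sample mean below both group means.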
